A study of Mus musculus with 21 samples.

Results

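The natriuretic peptide system was described here through 7 genes: Nppa and Nppb, which encode the precursors of atrial and B-type natriuretic peptide; Npr1, Npr2 and Npr3, which encode the receptors; and Corin and Furin, which encode proteases that cut the precursors. The genes were chosen by name, as the cardiac peptide hormones with their receptors and processing enzymes, out of 19096 genes in the authors' gene matrix. All 7 passed the filter on low counts, which left 15216 genes for testing.

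Bulk RNA was sequenced from freeze-clamped hearts of male C57BL/6NJ mice, which entered the study at 8 to 10 weeks of age and ate chow or a diet with 60% of its energy as fat (HFD) for 10 weeks. Mice received an adeno-associated virus (AAV) carrying Renin, or a control, by retro-orbital injection, and hearts were taken 6 weeks later. The sample labels call the control "novirus", while the study's design text calls it a null vector; the promoter of the virus and the tissue it reached are not given in the sources used here. The 4 groups were chow novirus (n = 4), chow Renin (n = 6), HFD novirus (n = 6) and HFD Renin (n = 5), the last of these combining both hits of the model of HFpEF (heart failure in which the ejection fraction is preserved). The heart tissue held at most 5 reads of Ren1 in a library, and reads of Ren1 in 3 Renin and 1 novirus libraries, so these hearts do not check the label of the virus. Each library is treated as 1 heart, as labelled.

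Pro-atrial natriuretic peptide is made mostly in the atria of the adult heart, and both peptide genes are classically switched on in ventricular cardiomyocytes under wall stress. Corin, a membrane protease of cardiomyocytes, cleaves the atrial precursor, and the B-type precursor is cut by Furin or Corin. The mature peptides bind NPR1, a guanylyl cyclase that makes cyclic GMP, and so promote salt excretion and vessel relaxation; NPR2 is the guanylyl cyclase receptor of the C-type peptide, and NPR3 has no cyclase and removes the peptides from the circulation.

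The libraries differed in atrial transcripts, and their origin (the chambers sampled or the handling of the libraries) is not given in the labels and was not tested. The ventricular and cardiomyocyte genes were abundant in all 21 libraries, with a summed level over 6 cardiomyocyte genes of 34417 to 52777 CPM (a gene's part of the estimated reads of its library, scaled to a common library size). Atrial myosin and calcium pump genes stood apart in 5 libraries: replicate 3 of each of the 4 groups and chow Renin replicate 1. Sln, the atrial regulator sarcolipin, was at 34.0 to 73.1 CPM there and at 0 to 0.667 CPM in the other 16, and Myl7, the atrial myosin light chain, was at 103 to 254 CPM against 0.278 to 2.98 CPM. Over the 8 atrial genes tested, the summed level reached 886, 667, 871 and 660.3 CPM at its highest in chow novirus, chow Renin, HFD novirus and HFD Renin, and was lowest at 142, 121, 142 and 86.6 CPM. Nppa was at 239 to 534 CPM in the 5 libraries, above the median of 162 CPM in the other 16 and inside their range of 27.2 to 1002 CPM. Results are therefore given also without these 5 libraries, an exclusion chosen after seeing the data and from atrial genes other than Nppa. Fewer cells of a type and less RNA per cell cannot be told apart in bulk tissue.

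Nppb and Nppa lie next to each other on mouse chromosome 4, both on the plus strand, and sequences at their starts are shown because these were the genes whose levels varied most. In GENCODE M21, on build GRCm38, Nppb spans chr4:147985788-147987205 and Nppa chr4:148000722-148002079, with 13516 bases between them. Capitals mark matches, on either strand, to TGATAA or AGATAA (letters bound by GATA factors), TNAAGTG (NKX2-5), GGTGTGA (T-box factors), CATTCC (the MCAT letters of TEAD factors) and TATAAA. RefSeq promoter entries (GRCm38.p6) were found for all 7 genes, in 8 windows of the 250 bases before a start. For Nppa the whole window, chr4:148000472-148000721 on the plus strand, is given. For Nppb only the 27 bases at chr4:147985795-147985821 that span its factor matches are given, since the GENCODE gene begins 112 bases before the RefSeq start; these bases thus lie before the RefSeq start but inside the GENCODE gene.
Nppa: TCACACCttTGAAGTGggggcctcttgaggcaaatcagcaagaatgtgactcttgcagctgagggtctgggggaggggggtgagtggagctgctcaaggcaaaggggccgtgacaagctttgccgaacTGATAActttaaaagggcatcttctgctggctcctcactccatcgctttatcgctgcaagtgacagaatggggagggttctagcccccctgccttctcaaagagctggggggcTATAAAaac
Nppb: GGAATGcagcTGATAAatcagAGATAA
The first capitals of the Nppa window are GGTGTGA on the minus strand, at -250 to -244 from the RefSeq start, followed by TGAAGTG, a form of TNAAGTG, at -241 and TGATAA at -122. In Nppb, CATTCC lies on the minus strand at -105, TGATAA at -95 and AGATAA at -84, and TATAAA, not shown, at -31. No match overlaps another. Single matches of this kind are common: of 32851 RefSeq windows, 7.94% hold TGATAA, 9.99% AGATAA, 10.1% TNAAGTG, 3.33% GGTGTGA, 12.6% CATTCC, 12.4% TATAAA and 1.47% a CArG box, the site of serum response factor. Of the other windows, 1 of the 2 before Furin holds TNAAGTG and TATAAA, and those of Npr1, Npr2, Npr3 and Corin hold none of the letters searched. A match is a description of the sequence and not evidence of binding.

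Levels of different genes were compared as TPM, the transcript abundance that corrects for length. The median over 21 hearts was 349 TPM for Nppa, 165 TPM for Nppb, 29.6 TPM for Corin, 23.2 TPM for Npr2, 18.2 TPM for Furin, 7.19 TPM for Npr1 and 2.32 TPM for Npr3. In TPM, Nppa was above Nppb in 16 of 21 hearts, so the order of the 2 peptides was not fixed. Corin was above Npr2 in 21 of 21 hearts and Npr2 above Furin in 20 of 21, although the ranges of these neighbours overlapped across hearts (26.4 to 42.0 TPM, 19.5 to 29.1 TPM and 15.7 to 23.3 TPM). Npr1 was above Npr3 in every heart, and the ranges, 5.38 to 10.5 TPM and 1.42 to 4.37 TPM, did not overlap. Thus the ligand transcripts had the highest medians of the set, and the receptor of the C-type peptide had a higher median than that of the cardiac peptides.

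The genes also differed in how much hearts of the same group varied. The pooled within-group SD of log2 CPM was 1.12 for Nppa and 0.90 for Nppb, against a median of 0.19 over all genes tested. Of 8059 genes with more than 10 CPM, 8 had a larger SD than Nppa and 13 a larger SD than Nppb. Npr3 followed with 0.36, exceeded by 218 genes. The SD was 0.19 for Corin, exceeded by 1501 of those genes, 0.18 for Npr1, exceeded by 1623, and 0.11 for Furin, exceeded by 5325, and Npr2, at 0.06, was steadier than 7867 of them. Without the 5 libraries with atrial transcripts the SD was 1.13 for Nppa and 0.99 for Nppb, so the spread of the peptides was as large without them.

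Nppa was highest on average in hearts with both HFD and Renin and lowest in hearts with HFD alone. The HFD Renin hearts were at 1002, 694, 371, 113 and 576 CPM. The 6 HFD novirus hearts ranged from 27.2 CPM through a median of 77.8 CPM to 246 CPM. Of the 5 HFD Renin hearts, 4 were above every HFD novirus heart and replicate 4 was inside their range. On chow, the novirus hearts were at 263, 149, 534 and 193 CPM, the highest being the one with atrial transcripts, and the 6 Renin hearts ranged from 54.7 CPM through a median of 308 CPM to 462 CPM. These chow groups overlapped each other throughout, and 3 of the 5 HFD Renin hearts were above every chow heart.

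Nppb followed the same order for the HFD groups. The HFD Renin hearts were at 629.9, 275, 107, 102 and 252 CPM, and the 6 HFD novirus hearts ranged from 15.9 CPM through a median of 75.0 CPM to 99.4 CPM. These 2 groups did not overlap, although the lowest HFD Renin heart was only just above the highest HFD novirus heart. The chow novirus hearts were at 99.1, 100.4, 166 and 145 CPM, and the 6 chow Renin hearts ranged from 48.2 CPM through a median of 87.6 CPM to 196 CPM. Replicate 1 of HFD Renin was highest of all 21 hearts for both peptides, and replicate 6 of HFD novirus was lowest for both.

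**Figure D1:**
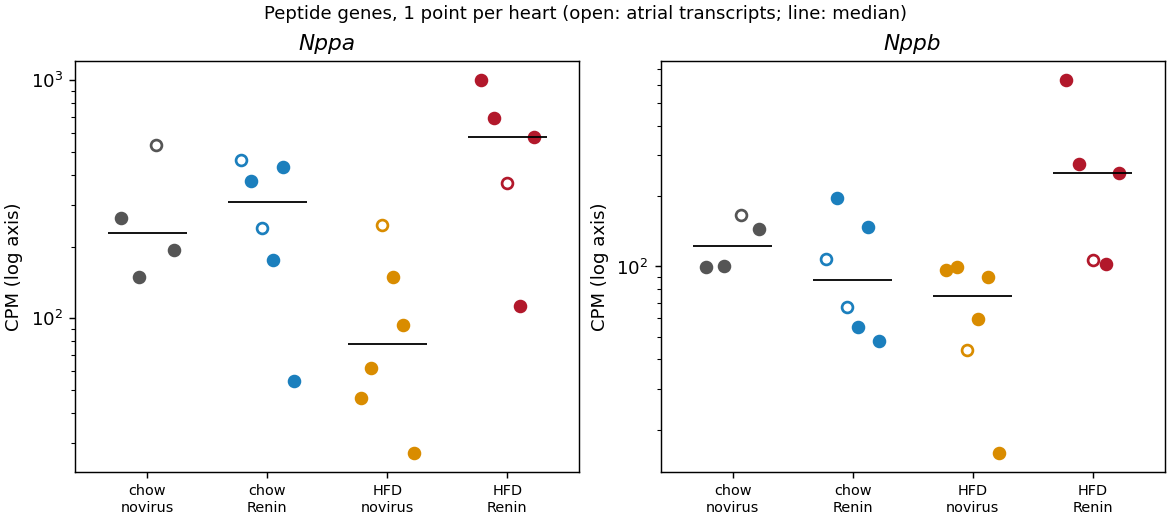
CPM of Nppa and Nppb on log axes, with 1 point per heart, a line at each group's median and open points for the 5 libraries with atrial transcripts. HFD Renin hearts reach 1002 CPM for Nppa and 629.9 CPM for Nppb, and HFD novirus hearts go down to 27.2 CPM and 15.9 CPM.

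Renin on top of HFD was the comparison in which the peptide genes passed the test (edgeR quasi-likelihood, with p-values adjusted over all 15216 genes by Benjamini-Hochberg, called below 0.05). In HFD Renin against HFD novirus, Nppa was higher by 2.40 on the log2 scale (SE 0.64, 5.29-fold, adjusted p = 0.0240) and Nppb by 2.01 (SE 0.53, 4.03-fold, adjusted p = 0.0217). Both were also called by DESeq2 (adjusted p = 0.000780 and 0.00153) and with the replicate number as a block (2.08, adjusted p = 0.0452, and 1.74, adjusted p = 0.0240). Thus 2 of 7 members were called, where 11.1% of all genes were called and 6.07% were called higher, and 1 of 7 did not overlap between these groups (Nppb), where 3.48% of all genes did not. Both calls rested on few hearts. Without HFD Renin replicate 1 the adjusted p was 0.0840 for Nppa (log2 difference 2.06) and 0.105 for Nppb (1.43), and for Nppa it was 0.0547 without replicate 2 and 0.0529 without replicate 5. A fit of these 2 groups alone gave the same differences with adjusted p of 0.0879 for Nppa and 0.101 for Nppb, and with a score of central nervous genes as covariate Nppb was at 1.73 and not called (SE 0.55, adjusted p = 0.0644).

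Removing the libraries with atrial transcripts left 4 HFD Renin and 5 HFD novirus hearts. There the Nppa difference was 2.96 (SE 0.71, adjusted p = 0.0227), and the Nppb difference was 2.10 (SE 0.62, adjusted p = 0.0502), which no longer passed. Over all alternatives run for this comparison, the log2 difference stayed between 1.37 and 2.96 for Nppa and between 0.58 and 2.22 for Nppb, with adjusted p of 0.000780 to 0.801 and 0.00153 to 0.898.

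The low ends of these ranges came from a covariate for daily clock genes, whose levels moved with the same comparison. The summed level of 8 clock genes that peak late in the light phase was 527 to 653 CPM in HFD Renin and 666 to 733 CPM in HFD novirus, and 1 of the 8 was called lower; of 4 genes of the opposite phase, 1 was called higher (30.9 to 53.5 CPM against 28.6 to 33.7 CPM). None of these clock genes was at 0 in any library. The clock score, the mean log2 CPM of the first set minus that of the second, was lowest of all 21 hearts in HFD Renin replicate 1 (2.39, against 3.11 to 3.47 in the other 4 HFD Renin hearts), the heart that was highest for both peptides and without which both calls were lost. With a clock score as covariate, the difference was 1.37 (SE 0.81, adjusted p = 0.801) for Nppa and 0.58 (SE 0.58, adjusted p = 0.898) for Nppb. That edgeR fit called 0 of 15216 genes in HFD Renin against HFD novirus (1070 at an unadjusted p below 0.05) and 0 against chow novirus (1036), so no gene could keep a call there. The score ran from 3.67 to 4.02 in chow novirus, 3.16 to 3.47 in chow Renin, 3.44 to 3.77 in HFD novirus and 2.39 to 3.47 in HFD Renin. Group and clock score thus cannot be told apart for either Renin group against chow novirus, and only barely for HFD Renin against HFD novirus. Cardiomyocyte transcripts moved too, with 4 of 6 called lower in HFD Renin and summed levels of 34417 to 40801 CPM against 41526 to 48041 CPM. Their part in the result was not tested.

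The other comparisons did not separate the peptides by this test. In HFD Renin against chow novirus the differences were 0.95 for Nppa (SE 0.70, adjusted p = 0.443) and 1.09 for Nppb (SE 0.58, adjusted p = 0.270). Fits that left out 1 library gave 0.61 to 1.45 for Nppa and 0.51 to 1.30 for Nppb. With the clock score as covariate both differences changed sign, to -0.45 (SE 1.06, adjusted p = 0.967) and -1.01 (SE 0.79, adjusted p = 0.870). The clock scores of these groups did not overlap, so group and score cannot be told apart in that fit. Without a covariate, 0 of 7 members were called by edgeR in this comparison, where 8.31% of all genes were. The count was also 0 at an unadjusted p below 0.05, 0 by DESeq2 and 0 by limma on log2(TPM + 1). In chow Renin against chow novirus the differences were 0.02 for Nppa (SE 0.66, 95% interval -1.27 to 1.32) and -0.30 for Nppb (SE 0.55, interval -1.38 to 0.77). Again 0 of 7 were called by edgeR, 0 at an unadjusted p below 0.05, 0 by DESeq2 and 0 by limma, where 13.5% of all genes were called. These intervals are wide enough to hold more than a 2-fold change in either direction for each gene except an increase of Nppb.

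In HFD novirus against chow novirus, Nppa was lower by 1.45 in the fitted value (log2 difference -1.45, SE 0.66, adjusted p = 0.432), with 5 of 6 HFD novirus hearts below every chow novirus heart, and Nppb had a difference of -0.92 (SE 0.55, adjusted p = 0.569). For Nppa the highest of those 5 (HFD novirus replicate 4) and the lowest chow novirus heart were both at 149 CPM after rounding. Of the members, 0 of 7 were called by edgeR, 1 (Nppa) had an unadjusted p below 0.05 (0.0409), 0 were called by DESeq2 and 0 by limma, where 0.0657% of all genes were called by edgeR. Against chow Renin, HFD Renin hearts had differences of 0.93 for Nppa (SE 0.62, adjusted p = 0.322) and 1.40 for Nppb (SE 0.52, adjusted p = 0.0614). The Nppb difference was called when chow Renin replicate 2, HFD novirus replicate 6, HFD Renin replicate 3 or HFD Renin replicate 4 was left out, with adjusted p of 0.0373, 0.0375, 0.0355 and 0.0329, and by DESeq2 with all libraries (1.38, adjusted p = 0.0271). It was 0.80 without HFD Renin replicate 1 (adjusted p = 0.313), 0.59 with the clock score (0.441) and 0.02 with a score of central nervous genes (SE 1.18).

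Whether the effect of Renin differed by diet was asked with an interaction term. The Renin effect on HFD exceeded that on chow by 2.38 for Nppa (SE 0.90, adjusted p = 0.111), 2.31 for Nppb (SE 0.75, adjusted p = 0.0582) and 0.87 for Npr3 (SE 0.30, adjusted p = 0.0746). No member was called by edgeR (0 of 7), 3 had an unadjusted p below 0.05, 3 were called by DESeq2 and 0 by limma, where 10.4% of all genes were called by edgeR. The DESeq2 adjusted p was 0.0401 for Nppa, 0.0188 for Nppb and 0.0261 for Npr3. A fit with the replicate number as a block called Npr3 (0.96, adjusted p = 0.0248), and so did the atrial score as covariate (0.91, adjusted p = 0.0304), while the clock score called Nppb (2.19, adjusted p = 0.0245). With the central nervous score, with which 24 of all genes were called for the interaction, the terms were 2.76 for Nppa (SE 1.97) and 0.60 for Nppb (SE 1.52), and neither these nor that of Npr3 were called. Over all alternatives the adjusted p ran from 0.0401 to 1 for Nppa, from 0.0188 to 1 for Nppb and from 0.0248 to 1 for Npr3. Leaving out single hearts called Nppb without chow Renin replicate 2 (0.0378), HFD Renin replicate 3 (0.0351) or HFD Renin replicate 4 (0.0324), and Npr3 without chow novirus replicate 2 (0.0426), chow novirus replicate 4 (0.0496), HFD novirus replicate 3 (0.0460) or HFD novirus replicate 6 (0.0368).

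**Figure D2:**
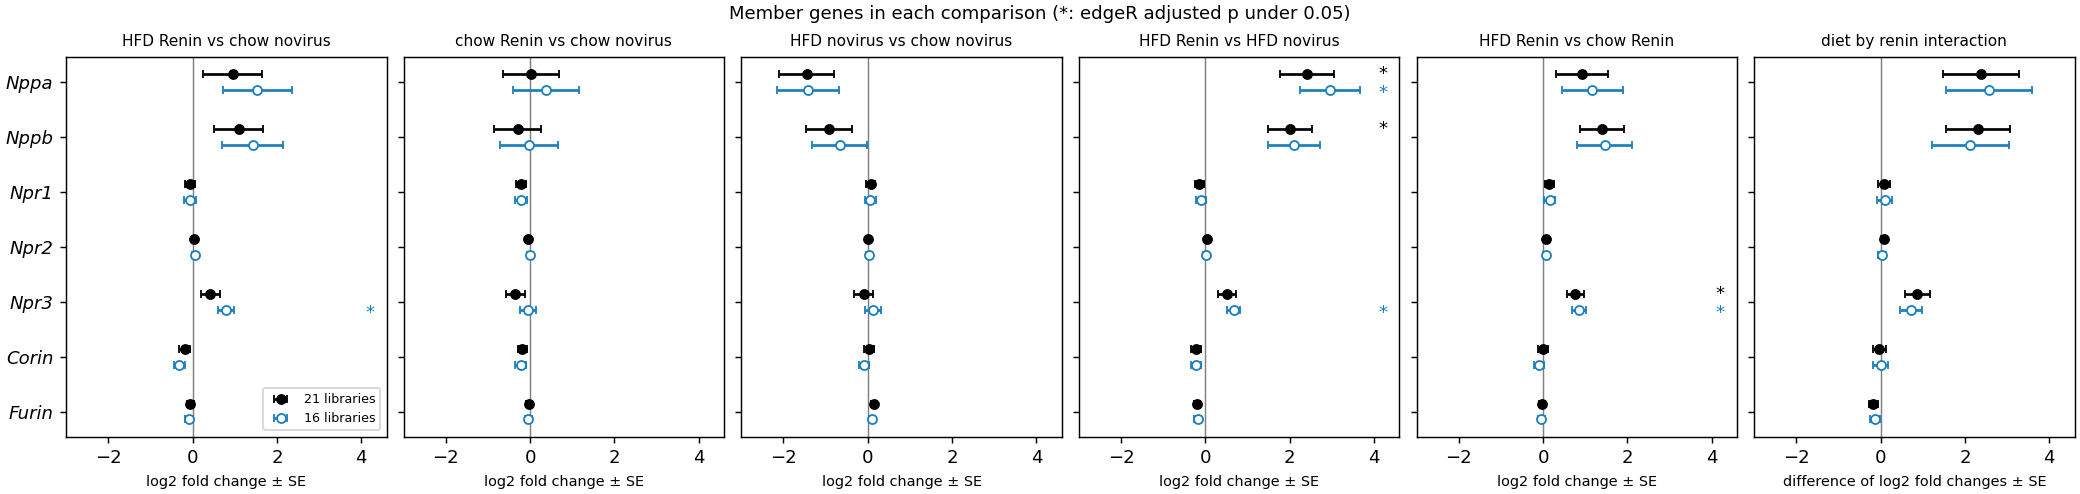
Log2 fold changes of the 7 genes in 5 comparisons, and the difference of log2 fold changes for the interaction, with bars of 1 SE; filled points use 21 libraries and open points the 16 without atrial transcripts. Asterisks mark an edgeR adjusted p below 0.05. With all libraries these are Nppa and Nppb in HFD Renin against HFD novirus and Npr3 in HFD Renin against chow Renin, and without the 5 libraries Nppa in HFD Renin against HFD novirus and Npr3 in HFD Renin against each of the 3 other groups.

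The 2 peptide genes tended to vary together from heart to heart within a group. After each group's mean log2 CPM was subtracted, Pearson's r over 21 hearts was 0.61 (permutation p = 0.00983) and Spearman's rho 0.50 (permutation p = 0.0368). Leaving out 1 heart moved the permutation p of rho past 0.05 in 9 of 21 cases, to at most 0.0914: chow novirus replicate 3, chow Renin replicates 3, 4, 5 and 6, HFD novirus replicate 6, and HFD Renin replicates 1, 4 and 5. The permutation p of r stayed below 0.05 in all 21, at most 0.0419. This was the only pair of genes tested for correlation, and the p-values of r and rho were not adjusted for each other. The members had been chosen with earlier results of these data known. Leaving out the 2 hearts farthest from the median of Nppa, HFD novirus replicates 6 and 1, gave r = 0.60 over 19 hearts (permutation p = 0.0226). Over the 16 hearts without atrial transcripts r was 0.76 and rho 0.62 (permutation p = 0.00770 and 0.0321). The groups are too small, at 4 to 6 hearts, for a correlation within each.

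The ratio of Nppa to Nppb in TPM ranged from 0.409 in HFD novirus replicate 1 to 4.78 in HFD novirus replicate 3, a heart with atrial transcripts. Group medians were 1.69 in chow novirus, 2.61 in chow Renin, 1.14 in HFD novirus and 1.95 in HFD Renin. None of the 5 comparisons of this ratio passed an exact permutation test (two-sided, adjusted over 10 ratio tests), the lowest adjusted p being 0.667. The ratio thus varied widely within groups, most of all in HFD novirus, and a difference between groups was not detectable at these sizes.

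**Figure D3:**
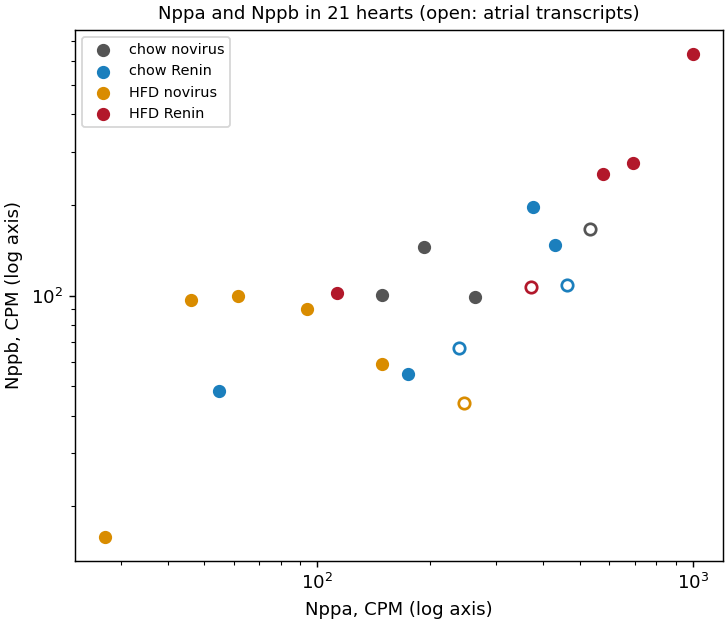
Nppb against Nppa in CPM on log axes, with 1 point per heart coloured by group and open points for libraries with atrial transcripts. Hearts high in one peptide tend to be high in the other, from 27.2 and 15.9 CPM in HFD novirus replicate 6 to 1002 and 629.9 CPM in HFD Renin replicate 1.

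Among the receptors, Npr3, the clearance receptor, was the one that passed a test, and it was highest in HFD Renin. The HFD Renin hearts were at 27.2, 21.6, 18.9, 24.0 and 18.8 CPM. The 6 chow Renin hearts ranged from 10.2 CPM through a median of 13.7 CPM to 14.8 CPM, entirely below them. The 6 HFD novirus hearts ranged from 11.4 CPM through 13.3 CPM to 21.5 CPM, and the chow novirus hearts were at 15.2, 11.6, 27.0 and 12.4 CPM. Overlap with these groups came from HFD novirus replicates 6 and 3 and from chow novirus replicate 3. Replicate 3 of both groups carried atrial transcripts.

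In HFD Renin against chow Renin, Npr3 was higher by 0.77 on the log2 scale (SE 0.21, 1.71-fold, edgeR adjusted p = 0.00996). It was the only member called there, 1 of 7, where 22.6% of all genes were called and 9.80% were called higher, and the only member without overlap, where 15.3% of all genes had none, so neither count sets the members apart. Against HFD novirus the difference was 0.52 (SE 0.21, adjusted p = 0.109) and against chow novirus 0.42 (SE 0.23, adjusted p = 0.287). Without chow novirus replicate 3 these became 0.52 (adjusted p = 0.0414) and 0.76 (adjusted p = 0.0236). The difference from HFD novirus was also called with the replicate number as a block (0.64, adjusted p = 0.0286) and with the atrial score as covariate (0.55, adjusted p = 0.0471). With the clock score Npr3 was at 0.22 against HFD novirus (SE 0.27, adjusted p = 0.923) and -0.01 against chow novirus (SE 0.34, adjusted p = 0.999). Without all 5 libraries with atrial transcripts, Npr3 was higher in HFD Renin than in each other group: by 0.85 against chow Renin (SE 0.17, adjusted p = 0.00206), by 0.67 against HFD novirus (SE 0.16, adjusted p = 0.0172) and by 0.79 against chow novirus (SE 0.19, adjusted p = 0.0177). All genes called in those fits made up 16.2%, 9.83% and 8.34%. Over all alternatives the adjusted p of these 3 comparisons ran from 0.000322 to 0.950, from 0.0172 to 0.923 and from 0.0177 to 0.999.

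Transcripts of other cells moved with the Npr3 comparisons. The chow Renin hearts held central nervous transcripts at a summed level of 180.5 to 306 CPM over 9 genes, against 41.0 to 79.4 CPM in HFD Renin, and 8 of the 9 were called lower in HFD Renin; Aqp4 was at 0 in at least 1 library. With a central nervous score as covariate the Npr3 difference was 0.95 (SE 0.50, adjusted p = 0.950), and 40 of all genes were called; in this design the score nearly coincides with the chow Renin group, and group and score cannot be told apart. The limma fit on log2(TPM + 1), which shrinks changes of low genes, gave 0.45 (adjusted p = 0.0728). Of 5 fibroblast genes 0 were called by edgeR between the Renin groups, with summed levels of 501 to 728 CPM in HFD Renin and 346 to 548 CPM in chow Renin, and of 5 endothelial genes 2 were called higher (657 to 828 CPM against 559 to 715 CPM). Of 6 cardiomyocyte genes 3 were called lower in HFD Renin than in chow Renin, with summed levels that did not overlap (34417 to 40801 CPM against 42040.2 to 43720.4 CPM), and 4 were called lower than in chow novirus (44486 to 52777 CPM). No fibroblast, endothelial or cardiomyocyte gene of these lists was at 0 in any library, and their part in the result was not tested.

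Npr1, the receptor of the cardiac peptides, was not called in any comparison. Levels were 27.2, 29.3, 30.7 and 29.0 CPM in chow novirus and 23.8, 28.9, 27.6, 31.1 and 26.8 CPM in HFD Renin, and ranged from 20.5 through 25.2 to 27.1 CPM in chow Renin and from 24.7 through 28.3 to 41.4 CPM in HFD novirus. All 6 chow Renin hearts were below all 4 chow novirus hearts, by a narrow gap, as were those of 15.1% of all genes in one direction or the other. The log2 difference was -0.22 (SE 0.11, edgeR adjusted p = 0.217). Over the 6 comparisons the log2 differences of Npr1 ran from -0.22 to 0.15.

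Npr2, the C-type receptor, was the steadiest gene of the set. It was at 67.7, 68.4, 74.9 and 70.8 CPM in chow novirus, from 66.0 to 70.9 CPM in chow Renin, from 68.0 to 74.2 CPM in HFD novirus, and at 63.5, 74.6, 72.7, 75.2 and 74.1 CPM in HFD Renin. The groups overlapped throughout. Log2 differences were between -0.04 and 0.07 in all 6 comparisons, with SE from 0.05 to 0.07. For HFD Renin against chow novirus the 95% interval of the log2 difference was -0.07 to 0.14.

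**Figure D4:**
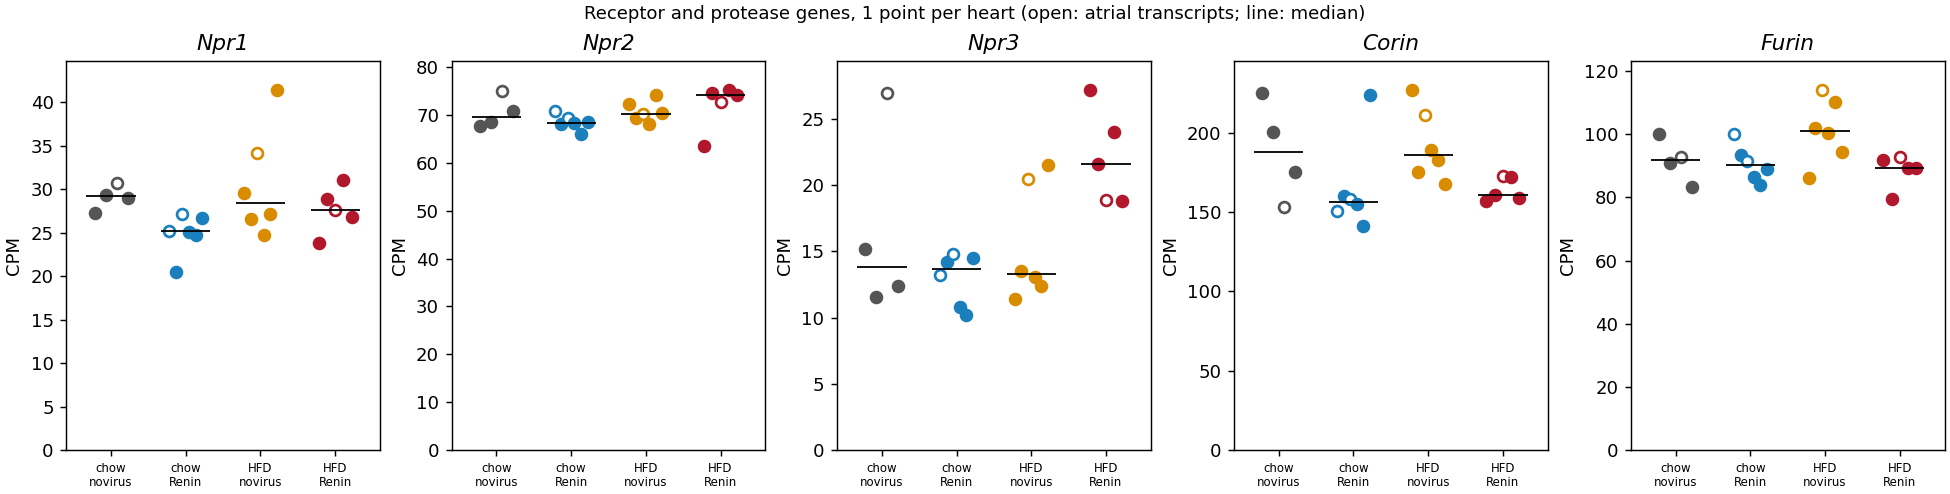
CPM of Npr1, Npr2, Npr3, Corin and Furin on axes that start at 0, with 1 point per heart, a line at each group's median and open points for libraries with atrial transcripts. For Npr3 the HFD Renin hearts, at 18.8 to 27.2 CPM, are all above the chow Renin hearts, at 10.2 to 14.8 CPM, while Npr2 stays between 63.5 and 75.2 CPM in all hearts.

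The balance of clearance receptor to cyclase receptor was taken as the ratio of Npr3 to Npr1 in TPM within each heart. It was 0.623, 0.391, 0.346, 0.423 and 0.431 in HFD Renin, and ranged from 0.193 through a median of 0.298 to 0.334 in HFD novirus, so these groups did not overlap. In chow Renin it ranged from 0.227 through 0.299 to 0.391, and in chow novirus it was 0.350, 0.216, 0.452 and 0.213. The log2 ratio was higher in HFD Renin than in HFD novirus by 0.66 (SE 0.19, exact permutation p = 0.00433, the smallest that 5 against 6 hearts allow, and 0.0433 after adjustment over 10 ratio tests). With 1 TPM added to both genes the difference was 0.47 and no longer passed (exact permutation p = 0.00866, adjusted p = 0.0866). Against chow Renin the difference was 0.56 (exact permutation p = 0.0173, adjusted p = 0.0866) and against chow novirus 0.57 (exact permutation p = 0.143, adjusted p = 0.476). Leaving out 1 heart gave differences of 0.53 to 0.75 from HFD novirus. In all 11 such fits the exact permutation p was the smallest that the group sizes allow, and the adjusted p was 0.0476 without HFD Renin replicate 3, where the test against chow Renin was as low, and above 0.05 in the other 10 (at most 0.0952). These sizes cannot take a single test past the adjustment over 10 tests. Without the 5 libraries with atrial transcripts it was 0.80 (exact permutation p = 0.0159, the smallest that 4 against 5 hearts allow, adjusted p = 0.143).

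**Figure D5:**
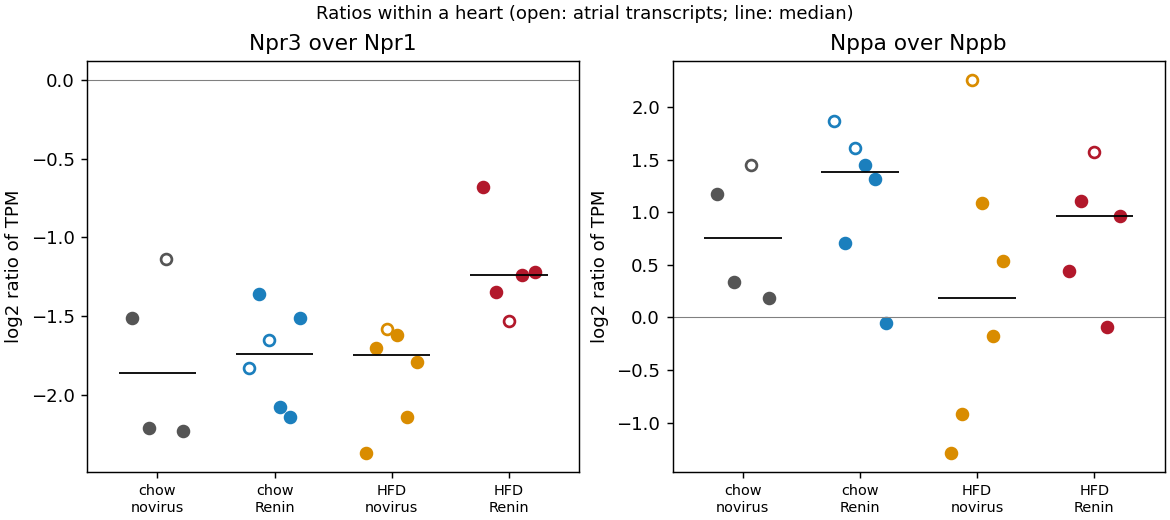
Log2 ratios of TPM within each heart, Npr3 over Npr1 and Nppa over Nppb, with 1 point per heart, a line at each group's median and open points for libraries with atrial transcripts. For Npr3 over Npr1 the HFD Renin hearts, at -1.53 to -0.68, are above all HFD novirus hearts, at -2.37 to -1.58, while the Nppa over Nppb groups overlap.

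Corin, the protease of the atrial precursor, was at 225, 200.5, 153 and 175 CPM in chow novirus and at 157, 161, 173, 172 and 159 CPM in HFD Renin. It ranged from 141 through 157 to 224 CPM in chow Renin and from 168 through 186 to 227 CPM in HFD novirus. The HFD Renin hearts were in a narrow band at the low end of the HFD novirus range, and 3 of 5 were below all of these. The log2 difference between them was -0.22 (SE 0.11, edgeR adjusted p = 0.183). In chow Renin against chow novirus it was -0.19 (SE 0.11, adjusted p = 0.319), and it was called without chow Renin replicate 6 (-0.30, adjusted p = 0.0342).

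Furin, a convertase of the secretory pathway with many substrates, was at 100, 90.9, 92.9 and 83.2 CPM in chow novirus and at 91.9, 79.5, 92.7, 89.4 and 89.3 CPM in HFD Renin, and ranged from 83.9 through 90.2 to 100.1 CPM in chow Renin and from 86.0 through 101 to 114 CPM in HFD novirus. The groups overlapped. In HFD Renin against HFD novirus the log2 difference was -0.19 (SE 0.07, edgeR adjusted p = 0.0723). Without HFD novirus replicate 1 it was -0.23 and called (adjusted p = 0.0209), and DESeq2 called it (-0.20, adjusted p = 0.0451). The adjusted p over the alternatives ran from 0.0209 to 0.894.

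The deposited transcript estimates show which forms made up these levels. Nppa and Nppb each have 1 annotated transcript. The full-length Npr1-201 held a median of 76.6% of the Npr1 TPM, Npr3-201 72.8% of Npr3, Npr2-201 58.8% of Npr2, and Furin-203 69.6% of Furin. Corin was divided between Corin-202, with a median of 61.8%, and Corin-201, with 37.8%. The Corin-201 share ranged from 15.8 to 48.6% in chow novirus, 27.7 to 39.3% in chow Renin, 9.86 to 46.1% in HFD novirus and 29.9 to 57.7% in HFD Renin, and the groups overlapped. These shares are estimates for overlapping transcripts and were not tested.

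Other genes of the pathway were taken from 4 lists. Of 5 genes for other ligands and for breakdown, Mme, Ide and Dpp4 could be tested; Nppc, the C-type peptide, had 121 reads in all 21 libraries together and Ostn 41. By edgeR 0 of the 3 were called in any comparison. Mme, which encodes neprilysin, the main peptide-degrading enzyme, had log2 differences from -0.22 to 0.33. Dpp4, a dipeptidyl peptidase that trims B-type peptide, had the lowest adjusted p of the 3, 0.0637 in HFD Renin against chow novirus (-0.85, SE 0.28).

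Of 3 further convertases, Pcsk6, which activates Corin, fell in chow Renin against chow novirus, from 70.6 ± 5.59 to 54.2 ± 3.66 CPM (SD, n = 4 and 6). Its log2 difference there was -0.38 (SE 0.08, edgeR adjusted p = 0.00125). It also fell in HFD Renin against HFD novirus, from 70.1 ± 6.64 to 58.9 ± 6.24 CPM (SD, n = 6 and 5), a difference of -0.25 (SE 0.08, adjusted p = 0.0331; 0.0888 without the libraries with atrial transcripts). The second of these calls missed the threshold in 6 of 21 fits that left out 1 library (at most 0.118, without HFD Renin replicate 1), and the first in 0 of 21. With the central nervous score and the clock score as covariates the first was -0.62 (adjusted p = 0.301) and -0.30 (0.113), and the second -0.22 (0.0719) and -0.18 (0.764). Pcsk5 and Pcsk7 were not called in any comparison.

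Of 11 genes for cyclic GMP effectors and phosphodiesterases, all tested, 1 was called higher and 1 lower in HFD Renin against chow novirus, where 8.31% of all genes were called in either direction, with a median log2 difference of 0.02 against 0.01 for all genes. Prkg1, a cyclic GMP-dependent kinase of smooth muscle and heart, rose from 7.54 ± 1.14 CPM in chow novirus to 13.8 ± 1.45 CPM in HFD Renin (SD, n = 4 and 5; log2 difference 0.88, SE 0.11, edgeR adjusted p = 0.000124). It was at 9.48 ± 0.625 CPM in chow Renin (n = 6) and 9.38 ± 1.14 CPM in HFD novirus (n = 6), and was higher in HFD Renin than in these by 0.55 (adjusted p = 0.000151) and 0.56 (adjusted p = 0.00138). It was also called higher in chow Renin than in chow novirus (0.33, adjusted p = 0.0418; 0.0569 without the libraries with atrial transcripts), a call that missed the threshold in 6 of 21 fits that left out 1 library (at most 0.188, without chow novirus replicate 4). The Prkg1 calls for HFD Renin passed in all such fits; with the clock score as covariate, with which no gene was called in these 2 comparisons, the Prkg1 difference was 0.74 against chow novirus (SE 0.17, adjusted p = 0.389) and 0.47 against HFD novirus (SE 0.13, adjusted p = 0.410). With the central nervous score it was 0.45 against chow Renin (SE 0.22, adjusted p = 0.920).

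Rgs2, a brake on Gq signalling that the kinase activates, fell from 65.5 ± 6.93 to 28.3 ± 11.0 CPM between chow novirus and HFD Renin (SD, n = 4 and 5; -1.21, SE 0.24, edgeR adjusted p = 0.00536), and was lower in HFD Renin than in chow Renin (-0.69, SE 0.22, adjusted p = 0.0310; 0.112 without the libraries with atrial transcripts). The first of these passed in all fits that left out 1 library and was -0.28 (SE 0.27, adjusted p = 0.908) with the clock score. The second missed the threshold in 6 of 21 (at most 0.0849, without HFD Renin replicate 2) and changed sign with the central nervous score as covariate (0.17, SE 0.46, adjusted p = 0.994). In chow Renin against chow novirus Prkg2 (1.82, adjusted p = 1.73e-06) and Rgs4 (0.72, adjusted p = 4.04e-05) were called higher. Central nervous genes were higher in the same comparison, 8 of 9 called, at 180.5 to 306 CPM against 48.0 to 59.2 CPM, and with their score as covariate, with which 42 of all genes were called here, the difference was 1.38 for Prkg2 (SE 0.56, adjusted p = 0.462) and 0.21 for Rgs4 (SE 0.25, adjusted p = 0.860). In HFD Renin against chow Renin 1 of the 11 was called higher and 3 lower, where 22.6% of all genes were called. Prkg2 (-1.91, edgeR adjusted p = 1.74e-07) and Rgs4 (-0.59, 0.000129) were among the lower ones. Their interaction terms were -2.24 (edgeR adjusted p = 1.58e-05) and -0.90 (0.000184). Central nervous genes moved the same way in both, with 8 of 9 called lower. Each of these Prkg2 and Rgs4 calls was lost in 1 alternative. The phosphodiesterases Pde2a, Pde3a, Pde3b, Pde5a and Pde9a were not called with all libraries, and Pde3b was called without the 5 with atrial transcripts against chow novirus (0.61, adjusted p = 0.0391) and HFD novirus (0.48, adjusted p = 0.0475).

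Of 18 transcription factors known to act on the peptide promoters or in cardiac gene control, 2 were called higher and 1 lower in HFD Renin against HFD novirus, the comparison in which the peptides were called and in which 11.1% of all genes were called. The median of the 18 was -0.13, against -0.01 for all genes. Tead1, which binds the MCAT letters shown for Nppb, rose from 97.2 ± 9.81 to 140.3 ± 40.7 CPM (SD, n = 6 and 5; 0.53, SE 0.13, edgeR adjusted p = 0.0163). Tbx20, a T-box factor, rose from 63.1 ± 10.6 to 82.2 ± 13.1 CPM (0.38, SE 0.11, edgeR adjusted p = 0.0277), and Gata6 fell from 58.5 ± 10.2 to 45.4 ± 5.46 CPM (-0.37, SE 0.11, edgeR adjusted p = 0.0306). Of 21 fits that left out 1 library, 2 lost the call of Tead1, 5 that of Tbx20 and 5 that of Gata6, with adjusted p of at most 0.0692 and 0.119 without HFD Renin replicate 1 and 0.0940 without HFD Renin replicate 2. With the clock score as covariate, with which no gene was called here, the differences were 0.11 for Tead1 (SE 0.13, adjusted p = 0.925), 0.16 for Tbx20 (SE 0.13, 0.862) and -0.31 for Gata6 (SE 0.15, 0.697), and a fit of the 2 groups alone called none of the 3. Without the libraries with atrial transcripts, calls were gained by Tbx5, a T-box factor of the heart, in HFD Renin against HFD novirus (-0.52, adjusted p = 0.0366) and against chow novirus (-0.69, adjusted p = 0.0182), and against chow novirus also by Gata6 (-0.39, adjusted p = 0.0316) and Tbx20 (0.47, adjusted p = 0.0379). Tbx5 was singled out after its values were seen.

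Against chow Renin, Tbx20 (0.57, edgeR adjusted p = 0.000461), Srf (0.33, 0.00473), Tead1 (0.49, 0.0122) and Nkx2-5 (0.27, 0.0436) were called higher in HFD Renin, and 0 of 18 lower, where 22.6% of all genes were called and 9.80% were called higher. Without the libraries with atrial transcripts the adjusted p was 0.113 for Nkx2-5 and at most 0.0351 for the other 3. Leaving out 1 library lost the call of Nkx2-5 in 14 of 21 fits and of Tead1 in 1 (0.0764, without HFD Renin replicate 1), and with the central nervous score as covariate none of the 4 was called and the Nkx2-5 difference changed sign (-0.06, SE 0.21, adjusted p = 0.995). In chow Renin against chow novirus, Gata4 (-0.27, adjusted p = 0.0339) and Hey2 (-0.50, adjusted p = 0.0342) were called lower, with 0.197 and 0.202 without those libraries, and the calls were lost in 7 and 8 of 21 fits that left out 1 library (at most 0.178, without chow novirus replicate 4, and 0.103, without chow novirus replicate 3). With the central nervous score as covariate the Gata4 difference changed sign (0.21, SE 0.18, adjusted p = 0.790). The interaction term was called for Tbx20 (0.56, adjusted p = 0.0236) and Tead1 (0.69, adjusted p = 0.0267), with 0.0659 and 0.0513 without those libraries and with 3 and 6 of 21 such fits losing the call (at most 0.0694, without HFD Renin replicate 1, and 0.0879, without chow novirus replicate 1).

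Clcn6 and 2510039O18Rik, which lie beside the peptide genes on chromosome 4, were not called in HFD Renin against HFD novirus. Clcn6, a chloride transporter gene after Nppa on the opposite strand, had a log2 difference of 0.15 (SE 0.09, edgeR adjusted p = 0.273), and 2510039O18Rik, before Nppb, had an adjusted p of 0.998. In chow Renin against chow novirus, 2510039O18Rik was called (-0.23, adjusted p = 0.0204; 0.0679 without the libraries with atrial transcripts). This call was lost in 3 of 21 fits that left out 1 library, those without chow novirus replicate 1, chow novirus replicate 2 or chow Renin replicate 3, with an adjusted p of at most 0.150 (without chow novirus replicate 2).

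The genes whose heart-to-heart pattern was most like that of each member were ranked by Pearson's r of log2 CPM over 21 hearts, after group means were subtracted; these values are descriptions of libraries that differ in depth and in transcripts of other tissues. For Nppa they were Cnksr1 (0.91), Ino80c (0.89), Slc9a9 (0.86), Pbxip1 (0.85) and Ackr4 (0.84). For Nppb they were Flnc, which encodes the Z-disc protein filamin C (0.89), Dync1li1 (0.88), Lmod2, which encodes a thin-filament protein (0.88), Ehbp1l1 (0.88) and the heat shock cochaperone gene Dnajb4 (0.87). Thus the 5 nearest genes of the 2 peptides did not coincide, nor did those over the 16 hearts without atrial transcripts. Over the 16 hearts the named genes were at ranks 3, 16, 12, 39 and 59 for Nppa and 20, 8, 1, 4 and 2 for Nppb. For Npr3 the nearest genes over 21 hearts were Adgra2 (0.90), Cyp1b1 (0.89), Postn, which encodes the matrix protein periostin (0.85), Nxn (0.85) and Entpd1 (0.84), and over the 16 hearts without atrial transcripts r was 0.88, 0.80, 0.75, 0.74 and 0.82. For Npr1 r was 0.85 with Rps20, Tapbp, Nfatc4 and Thoc2 and 0.84 with Arhgef25. For Npr2 they were Foxo4 (0.82), Xylb (0.81), Aox1 (0.81), Hdac4 (0.79) and Ube2e3 (0.79). For Corin they were Arel1 (0.91), Pdzd2 (0.89), the desmosomal gene Dsg2 (0.89), Cnst (0.87) and Fyco1 (0.86), and for Furin Rasl10a, Tns1 and Mosmo (each 0.78), Pdzrn3 (0.76) and Zbtb16 (0.75). Over the 16 hearts the ranks were 50, 2, 26, 6 and 16 for Npr1 and 5, 12, 7, 1 and 30 for Npr2, in the order named. They were 7, 2, 1, 9 and 8 for Corin and 30, 65, 82, 122 and 33 for Furin.

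The authors' deposited table of their own comparison for HFD with virus, whose reference group is not stated, gives log2 fold changes of 0.085 for Nppa (adjusted p = 0.413), 0.139 for Nppb (0.242) and 0.115 for Npr3 (0.38). In the authors' deposited table the other 4 members lie between -0.109 (Corin) and 0.008 (Npr2), with adjusted p from 0.36 to 0.956. The refit of the deposited counts gave larger differences for Nppa (0.95), Nppb (1.09) and Npr3 (0.42) in HFD Renin against chow novirus; whether the values in the authors' deposited table were shrunken is not given in the sources used here, so the 2 sets of values are not compared further.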

How the data were processed

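Bulk heart RNA of 21 mice was sequenced, and the authors estimated transcript abundance with Salmon 1.10.2 and used DESeq2 1.40.2, with build GRCm38 (mm10), per the submitters' processing notes. The deposited tables hold, per library, expected counts and TPM for each transcript, and a gene matrix whose values are a normalised signal that equals the summed TPM multiplied by 1.14 to 1.59 per library (member genes match within a ratio of 0.999 to 1.000). A deposited table of the authors' own comparison holds log2 fold changes and p-values. Estimated counts of transcripts were summed to genes with GENCODE M21, which matched 98.0% of 119215 transcripts; unmatched reads made up 0.854 to 0.925%. Library totals were 18.7 to 21.4 M reads in chow novirus, 24.4 to 27.4 M in chow Renin, 22.8 to 26.2 M in HFD novirus and 23.2 to 29.3 M in HFD Renin, and the members had 209 (Npr3) to 23780 (Nppa) reads.

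Counts were rounded, filtered with filterByExpr, scaled by TMM and tested with edgeR 4.0.16 (quasi-likelihood, all 4 groups in one fit, R 4.3.3), with p-values adjusted over 15216 genes. Two-sided exact permutation tests on log2 TPM ratios (10 tests) and 100000 permutations for the correlation used scipy 1.17.1. Where nothing beyond the labels shows that libraries are separate animals, p-values measure the spread between libraries. No 2 libraries of a group agreed within sampling noise (chi-square per degree of freedom 3.63 to 57.8 over 46 pairs). On simulated counts for HFD Renin against chow novirus (15025 genes, 200 changed), the test recovered 97.0% of changes of 1 and 100.0% of changes of 2 on the log2 scale, with 3.90% of calls false. The changed genes were drawn at random, so this recovery does not hold for genes as variable as Nppa and Nppb. Their within-group SD was 1.12 and 0.90, against a median of 0.19. In this comparison their SE was 0.70 and 0.58, and differences of 0.95 and 1.09 were not called.

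Genes named beside the members are pathway genes called in a comparison (the 6 with the smallest adjusted p per list), all testable ligand, breakdown and convertase genes, the phosphodiesterases, the 5 nearest by correlation, and chromosomal neighbours of the peptide genes, not all of which are reported here. Members and lists were chosen with earlier results of these data known. Alternatives were other scalings, filters, DESeq2 1.42.0, limma 3.58.1 on log2(TPM + 1), covariates, a replicate block, thinning to the smallest library, and leaving out each library or the 5 with atrial transcripts.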

Additional observations from a re-analysis of the deposited data

Results flagged for a closer look

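In 4 of 36 groups of values of the members, 1 heart stood apart from the others of its group by Dixon's criterion, which flags about 1 in 20 groups by chance. Npr1 was at 20.5 CPM in chow Renin replicate 2, against 24.7 to 27.1 CPM in the other 5 hearts. Npr2 was at 63.5 CPM in HFD Renin replicate 1, the heart with the highest peptide levels, against 72.7 to 75.2 CPM in the other 4. Corin was at 224 CPM in chow Renin replicate 6, against 141 to 159.9 CPM in the other 5. Furin was at 79.5 CPM in HFD Renin replicate 2, against 89.3 to 92.7 CPM in the other 4.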

How the results depend on the processing

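Of 1421 values of single members under the alternatives, 1322 kept their direction and their side of the threshold, 12 lost and 27 gained a call, 60 that were never called changed sign, and none called in either fit did. The number of members called in HFD Renin against HFD novirus was 0 when only these groups were fitted, 1 with the central nervous score and 0 with the clock score as covariate, and 3 with the replicate block, the atrial score or DESeq2. In HFD Renin against chow Renin it was 2 with DESeq2, 0 with the central nervous score and 0 with limma, and for the interaction 3 with DESeq2, 1 with the atrial score and 1 with the clock score. Without the 5 libraries with atrial transcripts it was 1 in HFD Renin against chow novirus. The number of all genes called moved with the setting too. In HFD Renin against HFD novirus it was 1131 with the central nervous score and 0 with the clock score. For the interaction it was 24 and 1948. The member counts therefore do not set the members apart. With the central nervous score as covariate, the called log2 differences of 3 pathway genes changed sign: Rgs2 (0.17) and Nkx2-5 (-0.06) in HFD Renin against chow Renin and Gata4 (0.21) in chow Renin against chow novirus. The cause was not tested.

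The replicate numbers share only a number in the labels, and not every same-numbered pair correlated: 16 of 28 had a correlation above 0.1 (median 0.13), against 41 of 136 other pairs (median -0.02), and 7 of 21 libraries were closest to their own number. Replicate 3 of every group carries atrial transcripts. With the replicate block, 1 member was called for the interaction, and Npr3 in HFD Renin against HFD novirus gained a call (0.64, adjusted p = 0.0286). Leaving out 1 library gave 0 to 1 members called in HFD Renin and in chow Renin against chow novirus, 0 to 0 in HFD novirus against chow novirus, 0 to 3 in HFD Renin against HFD novirus, 1 to 2 in HFD Renin against chow Renin and 0 to 1 for the interaction.

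The log2 difference in Npr3 over Npr1 was -0.06 in chow Renin against chow novirus and 0.62 in HFD Renin against chow Renin (adjusted exact p = 0.0433) from CPM, 0.47 in HFD Renin against HFD novirus with 1 TPM added (0.0866), and 0.06 in HFD novirus against chow novirus and 0.80 in HFD Renin against HFD novirus without the 5 libraries (0.971 and 0.143). Leaving out 1 library gave 0.42 to 0.78 in HFD Renin against chow novirus, -0.14 to 0.22 in chow Renin and -0.25 to 0.12 in HFD novirus against chow novirus, 0.43 to 0.64 against chow Renin and 0.53 to 0.75 against HFD novirus. For Nppa over Nppb it gave -0.19 to 0.23, 0.16 to 0.60, -0.94 to -0.23, -0.59 to -0.13 and 0.24 to 0.95 in the same order, and for the peptide correlation r of 0.53 to 0.72.

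The number of all genes called ranged over the alternatives from 0 to 1723 in HFD Renin against chow novirus, 42 to 2502 in chow Renin against chow novirus, 0 to 117 in HFD novirus against chow novirus, 0 to 2394 in HFD Renin against HFD novirus, 40 to 3784 in HFD Renin against chow Renin and 24 to 1951 for the interaction. The only-groups fit was not made for the interaction. With every library thinned to the smallest total, the differences in HFD Renin against HFD novirus were 2.37 for Nppa (SE 0.64) and 2.02 for Nppb (SE 0.53); lower depths were not tried.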
